A study of Mus musculus with 12 samples.

Results

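The genes described here encode the enzymes and transporters of glycolysis and the genes of the cell's response to low oxygen. They were chosen by symbol, as 21 glycolysis genes and 18 hypoxia response genes, from the annotation of the array, with the brightest array row standing for a gene that has several. Of the 39 genes, 34 had a row that names them alone, out of 22180 genes tested in the series. No row named Gpi1 or Eno1, and the rows of Aldoa, Bnip3l and Ankrd37 named a second gene too, so these 5 genes were not used.

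Glycolysis takes up glucose, splits it in a chain of cytosolic steps and yields ATP, pyruvate and lactate; T cells that are activated through their receptor are known for a high rate of it. The hypoxia-inducible factors HIF-1α (Hif1a) and HIF-2α (Epas1) are marked for destruction by oxygen-dependent prolyl hydroxylases and the VHL ubiquitin ligase. When they escape this, or when signals downstream of mTOR raise HIF-1α, they bind short DNA motifs and switch on many glycolytic genes together with genes for mitochondrial turnover, secretion and blood vessel growth.

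The series holds 12 arrays (Affymetrix Mouse Gene 2.0 ST) of RNA from splenic CD4+ T cells of Foxp3.eGFP reporter mice (strain C57BL/6-Foxp3.GFP) that were 8 weeks old, in which Foxp3-expressing cells are green. The study asked how Treg expansion through the T cell receptor compares with expansion without it. Cells were cultured as a mixed CD4+ population for 3 days. Some received monoclonal antibodies to CD3 and CD28 (2 µg/ml each), which act through the T cell receptor and its costimulatory receptor, and others soluble OX40L (5 µg/ml), a TNF family ligand, and JAG1 (1 µg/ml), a Notch ligand. Control cells were fresh and uncultured. Cells were sorted into Foxp3+ regulatory (Treg) and Foxp3- effector (Teff) cells, which gives 6 groups of 2 arrays each: anti-CD3-CD28 Treg, OX40L-JAG1 Treg, Control Treg, anti-CD3-CD28 Teff, OX40L-JAG1 Teff and Control Teff. In every comparison with Control, culture and stimulus cannot be told apart. Nothing in the labels tells whether the arrays of a pair, here called 1 and B, came from different mice or cultures. Each p-value thus covers just the spread between these samples, and that spread may be technical.

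The values are log2 intensities. Foxp3 averaged 11.12, 10.78 and 10.37 in the anti-CD3-CD28, OX40L-JAG1 and Control Treg groups, against 5.65, 6.58 and 5.66 in the matching Teff groups. Both OX40L-JAG1 Teff arrays differed from the others. The SD of intensity over genes was 1.71 and 1.49 in them, against 1.95 to 2.19 in the other arrays, and their replicates correlated at 0.881 over all genes, against 0.984 to 0.994 in the other groups. Markers of neutrophils and myeloid cells were high there, as given below, and Cd4 and Cd3e were low. Results that rest on these arrays are therefore given with the values that move with them.

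Anti-CD3-CD28 Treg cells had higher levels of nearly the whole glycolytic chain than Control Treg cells. Of the 34 measured genes, 30 rose and none fell (limma, adjusted p under 0.05), where 8.08% of all genes tested rose and 1.97% fell. The median log2 change was 2.15 over the 34 genes, against -0.05 over all genes. Of the 5545 brightest genes, which hold 26 of the 34, 17.4% rose. Both anti-CD3-CD28 Treg arrays lay above both Control Treg arrays for all 34 genes. The share of all genes separated in this way was not counted, so this count has no background here. In RNA from a sorted population, more RNA per cell and more cells with the RNA cannot be told apart.

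Both glucose transporters rose. Slc2a1, the glucose transporter GLUT1, had 11.07 and 10.84 in anti-CD3-CD28 Treg cells, against 7.97 and 7.68 in Control Treg cells. The rise was 3.13 ± 0.21 on the log2 scale (SE), or 8.76-fold (adjusted p = 7.11e-06). A second, dimmer row of Slc2a1 differed by only 0.16. Slc2a3, the GLUT3 transporter, rose by 2.19 ± 0.22 (adjusted p = 7.79e-05).

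All 7 measured enzymes of the upper chain rose. Hk2, the inducible hexokinase that traps glucose as its phosphate, had 8.20 and 8.41 in anti-CD3-CD28 Treg cells, against 5.49 and 5.93 in Control Treg cells, a rise of 2.59 ± 0.23 (adjusted p = 2.81e-05). The housekeeping isoform Hk1 rose by less, 1.29 ± 0.18 (adjusted p = 0.000801). The phosphofructokinase isoforms, which catalyse the committed step, rose by 2.58 (Pfkp), 2.21 (Pfkl) and 1.50 (Pfkm). Aldoc, an aldolase, rose by 2.70 ± 0.23, and Tpi1, triose phosphate isomerase, by 3.18 ± 0.23 (adjusted p = 1.01e-05).

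The lower chain rose as a whole too, in 5 of 5 measured enzymes. Pgk1, which makes the first ATP of the pathway, had 12.16 and 12.25 in anti-CD3-CD28 Treg cells, against 9.41 and 9.35 in Control Treg cells. This was a 7.08-fold rise (adjusted p = 6.31e-06). Pgam1, the mutase, rose by 2.34 and Pkm, pyruvate kinase, by 2.11. Gapdh rose by 1.50 ± 0.20 and Ldha, which turns pyruvate into lactate, by 1.15 ± 0.19 (adjusted p = 0.00214). Gapdh and Pgam1 have near-identical copies in the mouse genome, so their values are uncertain; a second Pgam1 row differed by 0.64 in place of 2.34.

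The lactate exporters parted. Slc16a3, the exporter MCT4, had 9.11 and 9.01 in anti-CD3-CD28 Treg cells, against 5.90 and 5.69 in Control Treg cells, and rose 9.61-fold (adjusted p = 3.63e-06). Slc16a1, the related carrier MCT1, had 7.90 and 7.77, against 7.59 and 7.43, and did not pass the test at 0.33 ± 0.21 (95% interval -0.13 to 0.78, adjusted p = 0.417). Of the bifunctional enzymes that set the level of the phosphofructokinase activator, Pfkfb3 rose by 0.92 ± 0.23 (adjusted p = 0.0245), and Pfkfb4 had 0.49 ± 0.19 and did not pass (adjusted p = 0.166).

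**Figure D1:**
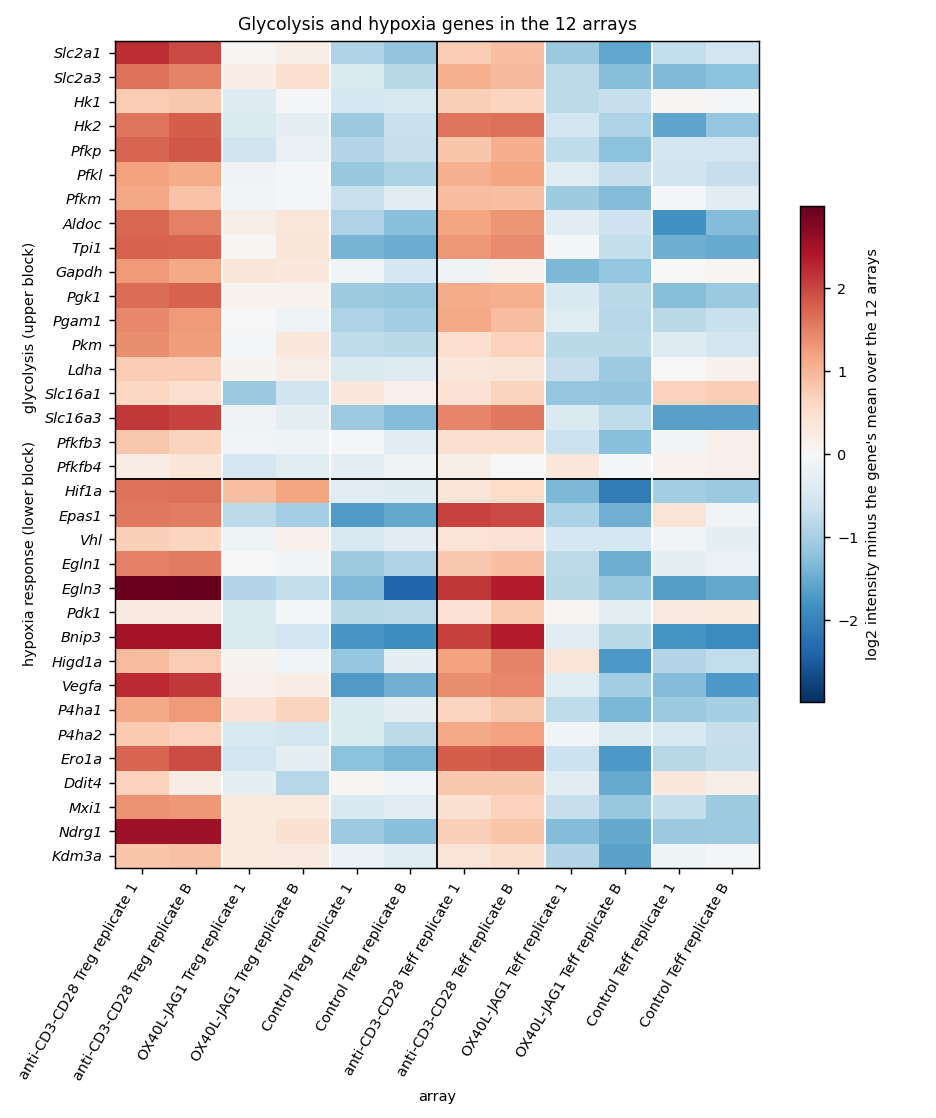
Log2 intensity of the 34 measured genes in each of the 12 arrays (columns), as the difference from the gene's mean over all arrays, with glycolysis genes in the upper block and hypoxia response genes in the lower block. The anti-CD3-CD28 arrays are red in nearly every row of both cell types, and Egln3 and Bnip3 have the widest range.

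The oxygen-sensing system rose in anti-CD3-CD28 Treg cells in all 5 of its measured genes. Hif1a had 11.17 and 11.20 in anti-CD3-CD28 Treg cells, against 9.25 and 9.16 in Control Treg cells (1.98 ± 0.24, adjusted p = 0.000262). Epas1 had 7.68 and 7.64, against 4.41 and 4.57 in Control Treg cells, below the lowest array median of 4.72. Measured from that median, Epas1 was at least 7.69-fold higher (adjusted p = 1.01e-05).

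The hydroxylases that mark the factors for destruction, themselves known HIF targets, rose as well. Egln3 had the largest rise of the 34 genes, with 9.92 and 9.97 in anti-CD3-CD28 Treg cells, against 5.66 and 4.62 in Control Treg cells (4.81 ± 0.29, or 28.1-fold, adjusted p = 4.54e-06). Its 2 Control arrays differed by about 1 log2 unit. Egln1, the main hydroxylase in most cells, rose by 2.51 ± 0.22 and Vhl by 1.06 ± 0.18.

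Classical HIF targets spanned a wide range. Bnip3, a receptor for the removal of mitochondria, had 9.47 and 9.45 in anti-CD3-CD28 Treg cells, against 5.24 and 5.12 in Control Treg cells, a 19.4-fold rise (adjusted p = 1.1e-06). Vegfa, the vascular growth factor, had 8.85 and 8.73, against 4.92 and 5.19, a 13.3-fold rise. Ndrg1, a stress-responsive gene, had 10.33 and 10.32, against 6.72 and 6.54, a 12.9-fold rise (adjusted p = 1.1e-06). These genes had no overlap between the groups and were low in both Control arrays.

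The remaining targets rose by less. Ero1a (formerly Ero1l), an oxidase of the endoplasmic reticulum, rose by 3.13 ± 0.29 (1.67 in a second, dimmer row). Mxi1, which opposes MYC, rose by 1.70 ± 0.21. The collagen prolyl hydroxylase P4ha1 rose by 1.57 ± 0.22, and its relative P4ha2 by at least 1.73-fold from a level below the array medians. Kdm3a, a histone demethylase, rose by 1.12 ± 0.23 and Pdk1, the kinase that shuts off pyruvate dehydrogenase, by 1.07 ± 0.20 (0.05 in a second row that lies below the array medians). Higd1a, a protein of the respiratory chain, had 1.57 ± 0.51 (adjusted p = 0.0843) and Ddit4, which restrains mTOR, 0.48 ± 0.34 (adjusted p = 0.47), and neither passed.

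Because these genes moved together, their promoters were read for the core of the hypoxia response element. The windows run from 250 bases before to 50 after the RefSeq gene start (mouse build GRCm38.p6), and 31 of the 34 measured genes had at least 1. Some genes had several windows, and a gene was counted if any of them held the letters. The letters ACGTG, on either strand, stood in the windows of 24 of the 31 genes (77.4%), against 21.8% of 27025 genes. The letters GCGTG stood in 22 (71.0%), against 35.2%. CACGTG, the E-box that contains ACGTG, stood in 6 (19.4%), against 8.09%. The median GC content of the windows was 63.0%, against 52.7% over all windows, and its part in these shares was not tested. Below, the windows of Egln3 (chr12:54203825-54204124, minus strand) and Bnip3 (chr7:138909457-138909756, minus strand) are those of the largest mean rises over Treg and Teff cells. That of Tpi1 (chr6:124814109-124814408, minus strand) had no match despite its rise. That of Slc16a1 (chr3:104638414-104638713, plus strand) had 3 ACGTG matches although its mean change was only 0.08. Its matches at -200 and -199 bases from the start are the opposite strands of 1 CACGTG. Matches on either strand are in capitals, and those on the opposite strand read CACGT or CACGC.
Egln3: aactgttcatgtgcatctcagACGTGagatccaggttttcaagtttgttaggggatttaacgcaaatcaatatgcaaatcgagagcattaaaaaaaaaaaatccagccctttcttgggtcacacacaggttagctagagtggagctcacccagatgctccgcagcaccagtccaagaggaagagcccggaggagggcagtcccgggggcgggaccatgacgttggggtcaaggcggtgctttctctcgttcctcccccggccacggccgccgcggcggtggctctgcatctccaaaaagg
Bnip3: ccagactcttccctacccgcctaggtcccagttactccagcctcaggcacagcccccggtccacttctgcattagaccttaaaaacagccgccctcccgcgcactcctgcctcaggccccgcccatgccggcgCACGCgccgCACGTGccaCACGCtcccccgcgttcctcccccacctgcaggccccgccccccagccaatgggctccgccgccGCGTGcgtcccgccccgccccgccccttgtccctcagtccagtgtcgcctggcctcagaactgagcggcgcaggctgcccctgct
Tpi1: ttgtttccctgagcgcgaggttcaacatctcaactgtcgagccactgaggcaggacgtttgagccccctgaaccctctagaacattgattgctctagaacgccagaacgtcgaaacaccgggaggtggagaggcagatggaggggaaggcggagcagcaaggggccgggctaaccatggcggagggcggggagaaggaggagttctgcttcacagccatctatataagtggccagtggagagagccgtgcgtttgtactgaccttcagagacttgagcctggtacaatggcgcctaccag
Slc16a1: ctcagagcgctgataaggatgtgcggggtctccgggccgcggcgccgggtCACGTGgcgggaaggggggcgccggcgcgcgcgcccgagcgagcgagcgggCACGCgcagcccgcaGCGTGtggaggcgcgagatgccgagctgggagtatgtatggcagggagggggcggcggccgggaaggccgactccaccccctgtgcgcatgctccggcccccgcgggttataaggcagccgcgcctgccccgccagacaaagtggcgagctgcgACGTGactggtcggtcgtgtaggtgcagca

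The motif counts were not used in any test. A match is a description of these letters and no evidence that a factor binds there.

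Some markers of other cells moved beside the rises in anti-CD3-CD28 Treg cells. The 7 measured erythroid and platelet markers summed to 285 and 304, against 210 and 217 in Control Treg cells, and 1 of them, the platelet chemokine Ppbp, rose (6.52 and 6.50, against 4.03 and 4.26). Their part in the result was not tested. Of 12 neutrophil and myeloid markers, 2 lay above the array medians in anti-CD3-CD28 Treg cells and 2 in Control Treg cells, with summed intensities of 321 to 341 against 253 to 286. The 6 measured T cell markers summed to 11764 and 12151, against 12499 and 13951. Without the OX40L-JAG1 Teff arrays in the fit, 32 of the 34 genes rose, where 14.8% of all genes did.

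Anti-CD3-CD28 Teff cells showed the same kind of shift against Control Teff cells, over fewer genes. Of the 34 genes, 25 rose and none fell, where 5.44% of all genes rose and 9.75% fell, and 8.93% of the 5545 brightest rose. The median log2 change was 1.64, against 0.07 over all genes. Of the 25 genes, 24 were among the 30 that rose in Treg cells; Higd1a was the exception, with 7.48 and 7.75 in anti-CD3-CD28 Teff cells, against 5.39 and 5.54 in Control Teff cells (2.15 ± 0.51, adjusted p = 0.0153).

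Bnip3 again stood near the top. It had 9.02 and 9.33 in anti-CD3-CD28 Teff cells, against 5.22 and 5.08 in Control Teff cells (4.03 ± 0.21, or 16.3-fold, adjusted p = 1.29e-06). Egln3 had 9.13 and 9.34, against 5.33 and 5.46, a 14.3-fold rise. Slc16a3 had 8.43 and 8.57, against 5.37 in both Control Teff arrays, an 8.76-fold rise. None of these groups overlapped.

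Hexokinase and the upper chain followed. Hk2 had 8.20 and 8.24 in anti-CD3-CD28 Teff cells, against 5.02 and 5.43 in Control Teff cells, and rose 7.97-fold (adjusted p = 1.48e-05). Tpi1 rose by 2.84 ± 0.23, Aldoc by 2.81 ± 0.23, Vegfa by 2.92 ± 0.24 and Ero1a by 2.61 ± 0.29. Slc2a3 rose by 2.28 ± 0.22, more than Slc2a1 at 1.49 ± 0.21. All 4 genes of secretion and collagen, Vegfa, P4ha1, P4ha2 and Ero1a, rose.

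The lower chain split in Teff cells, with 3 of 5 measured enzymes rising. Pgk1 rose by 2.28 ± 0.19, Pgam1 by 1.76 ± 0.21 and Pkm by 1.06 ± 0.19. The second, dimmer Pgam1 row changed by -0.21, so the rise of Pgam1 rests on 1 row. Gapdh and Ldha did not pass the test. Gapdh had 11.93 and 12.14 in anti-CD3-CD28 Teff cells, against 12.03 and 12.09 in Control Teff cells (-0.03 ± 0.20, 95% interval -0.47 to 0.42, adjusted p = 0.96). Ldha had 7.11 and 7.12, against 6.74 and 6.89 (0.30 ± 0.19, interval -0.12 to 0.71). Slc16a1 had -0.17 ± 0.21, Pdk1 0.32 ± 0.20, Pfkfb3 0.45 ± 0.23 and Pfkfb4 -0.05 ± 0.19. Vhl (0.59 ± 0.18, adjusted p = 0.0524), Kdm3a (0.54 ± 0.23) and Ddit4 (0.55 ± 0.34) did not pass either.

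As a sum, T cell markers were lower beside these rises. Cd4 averaged 9.92 in anti-CD3-CD28 Teff cells and 11.88 in Control Teff cells, and Cd3e averaged 10.58 and 11.88. Cd5 fell too (-1.55), while Cd2 (-0.22) and Cd3g (-0.54) did not pass. Cd3d went the other way (10.54 against 9.75) and did not pass either. The 6 measured T cell markers summed to 8330 and 8397, against 15061 and 16038. Of 12 neutrophil and myeloid markers 4 lay above the array medians, against 7 in Control Teff cells, and 5 of 7 B cell markers were lower. Of 7 erythroid and platelet markers 3 rose and 2 fell, and they summed to 677 and 692, against 1520 and 1615. Their part in the result was not tested. Without the OX40L-JAG1 Teff arrays in the fit, 27 genes rose, where 12.5% of all genes did.

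**Figure D2:**
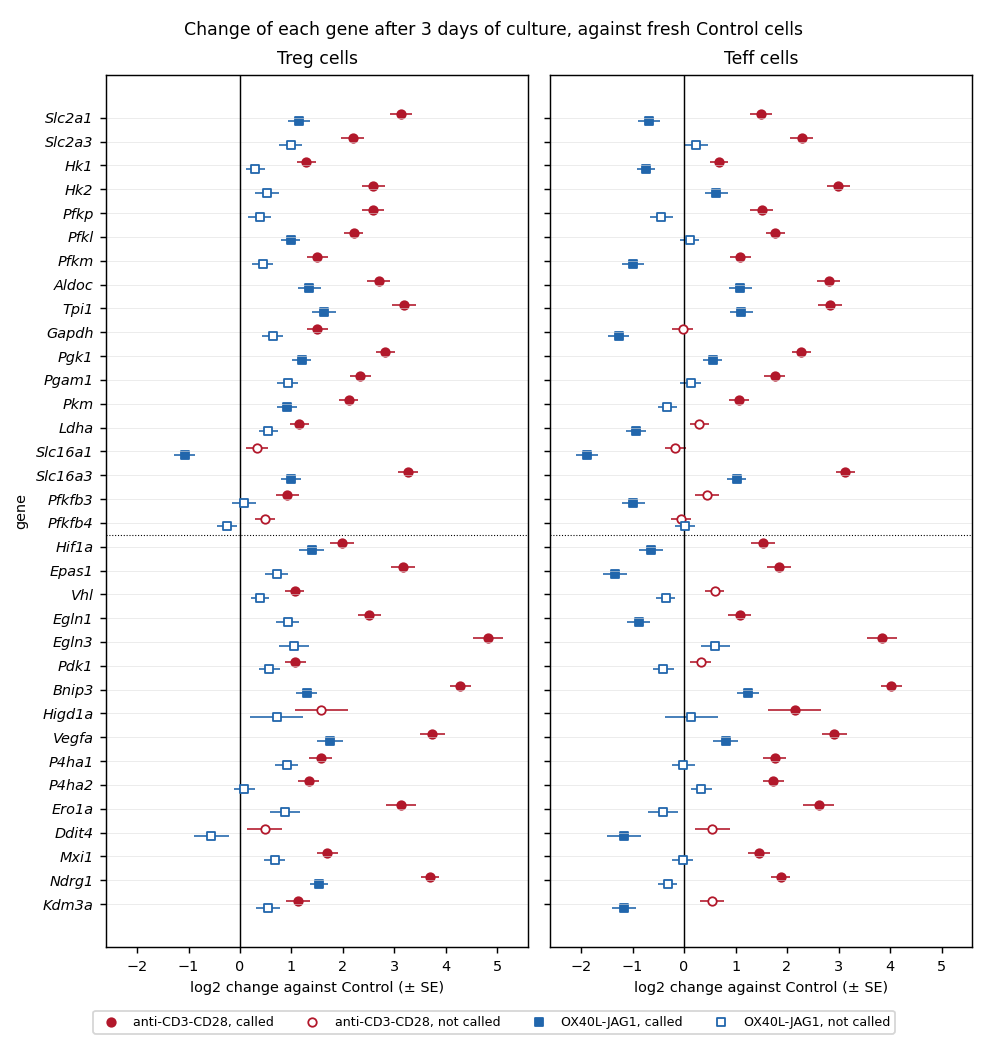
Log2 change of each gene against Control (± SE) in Treg cells (left) and Teff cells (right), for anti-CD3-CD28 (red circles) and OX40L-JAG1 (blue squares), with filled symbols for adjusted p under 0.05. The anti-CD3-CD28 changes reach 4.81 for Egln3 in Treg cells, and the OX40L-JAG1 changes lie between -1.88 and 1.75.

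OX40L-JAG1 Treg cells had a smaller shift in the same direction against Control Treg cells. Of the 34 genes, 11 rose and 1 fell, where 0.996% of all genes rose and 0.559% fell. The median log2 change was 0.79, against -0.01 over all genes. Both arrays lay above both Control arrays for 29 genes and below for 3. How many of all genes were separated like this was not counted, so these counts have no background either.

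The genes that rose came from several roles. Vegfa had 6.77 and 6.83 in OX40L-JAG1 Treg cells, against 4.92 and 5.19 in Control Treg cells (1.75 ± 0.24, adjusted p = 0.00405). Tpi1 had 9.66 and 9.98, against 8.24 and 8.13 (1.64 ± 0.23, adjusted p = 0.00405). Ndrg1 had 8.08 and 8.26, against 6.72 and 6.54 (1.54 ± 0.18, adjusted p = 0.00138). The groups did not overlap for these genes.

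Hif1a had 10.45 and 10.74 in OX40L-JAG1 Treg cells, against 9.25 and 9.16 in Control Treg cells, and rose by 1.39 ± 0.24 (adjusted p = 0.0137). Aldoc rose by 1.35, Bnip3 by 1.29, Pgk1 by 1.20, Slc2a1 by 1.14, Slc16a3 by 0.99, Pfkl by 0.98 and Pkm by 0.92. The second, dimmer row of Slc2a1 differed by only 0.03. Egln3, the top gene with anti-CD3-CD28, had 6.12 and 6.27, against 5.66 and 4.62, and did not pass (1.06 ± 0.29, adjusted p = 0.132). Hk2 had 0.52 ± 0.23 and did not pass (adjusted p = 0.454).

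The gene that fell was the lactate and pyruvate carrier Slc16a1. It had 6.17 and 6.69 in OX40L-JAG1 Treg cells, against 7.59 and 7.43 in Control Treg cells (-1.08 ± 0.21, adjusted p = 0.0269). The other exporter, Slc16a3, had 6.87 and 6.70, against 5.90 and 5.69. The carriers therefore moved in opposite directions in RNA from the same sorted population, which need not mean in the same cells.

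Myeloid markers moved with these changes. In OX40L-JAG1 Treg cells 11 of 12 neutrophil and myeloid markers lay above the array medians, against 2 of 12 in Control Treg cells, and they summed to 2302 and 2702, against 253 and 286. Basophil and mast cell markers summed to 654 and 803, against 90.1 and 95.9, and erythroid and platelet markers to 585 and 698, against 210 and 217, while T cell markers summed to 12975 and 13194, against 12499 and 13951. Their part in the result was not tested. The count of calls was unstable: 20 rose and 1 fell (3.40% and 2.01% of all genes) without the OX40L-JAG1 Teff arrays in the fit, leaving out any 1 of the 4 arrays compared left 2 or 3 calls, and either Control Teff array 7.

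In OX40L-JAG1 Teff cells the genes did not move one way. Against Control Teff cells, 7 of the 34 rose and 12 fell, where 20.0% of all genes rose and 26.9% fell. Of the 5545 brightest genes 73.0% fell, with a median log2 change of -1.13, and the 34 genes had a median of -0.32. The share of the 34 genes that rose was near that of all genes, while 3.44% of the 5545 brightest genes rose.

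The genes that rose were Bnip3 (1.24 ± 0.21), Tpi1 (1.11), Aldoc (1.09), Slc16a3 (1.02), Vegfa (0.81), Hk2 (0.63) and Pgk1 (0.55). Bnip3 had 6.63 and 6.15 in OX40L-JAG1 Teff cells, against 5.22 and 5.08 in Control Teff cells. The largest fall was that of Slc16a1, with 6.13 and 6.10 in OX40L-JAG1 Teff cells, against 7.98 and 8.02 in Control Teff cells (-1.88 ± 0.21, adjusted p = 7.46e-05). Epas1 had 5.17 and 4.67, against 6.51 and 6.02 (-1.34 ± 0.23), and Gapdh had 10.69 and 10.89, against 12.03 and 12.09 (-1.27 ± 0.20). Pfkm fell at least 1.37-fold, to a level below the array medians.

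These counts depend on the scaling. After quantile normalization 16 of the 34 genes rose and 4 fell, and with arrays set to a common median 4 rose and 17 fell. Slc16a1, Epas1, Gapdh and Pfkm fell, and Bnip3, Tpi1, Aldoc, Slc16a3, Vegfa, Hk2 and Pgk1 rose, after quantile normalization too, while Hif1a, Slc2a1, Hk1 and Egln1 changed sign. In OX40L-JAG1 Teff cells the neutrophil and myeloid markers summed to 4855 and 11048, against 374 and 402 in Control Teff cells, and T cell markers to 3817 and 6451, against 15061 and 16038. Their part in the result was not tested.

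**Figure D3:**
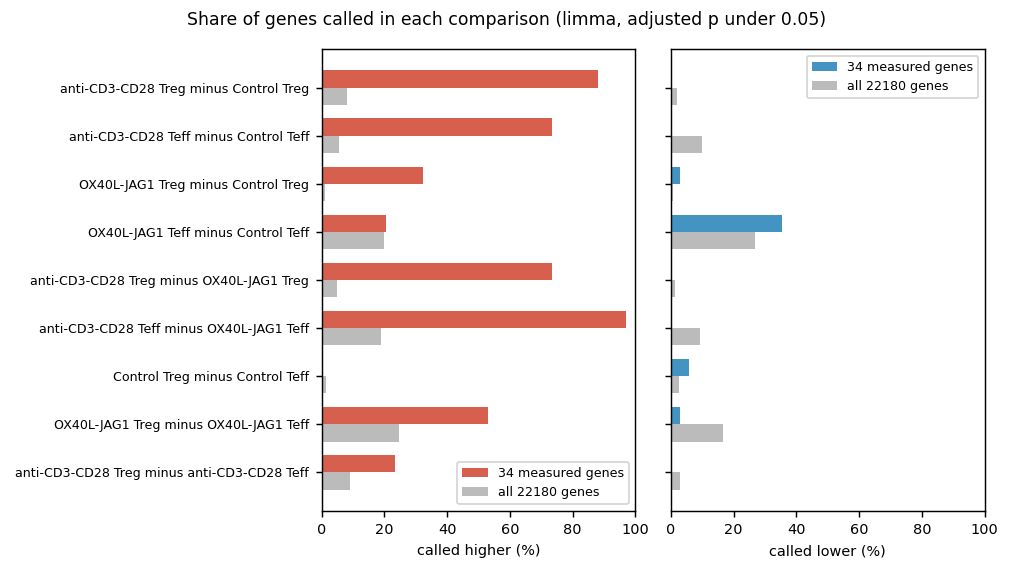
Share of genes called higher (left) and lower (right) in each comparison of groups, for the 34 measured genes (coloured bars) and all 22180 genes tested (grey bars). The coloured bars stand far above the grey ones with anti-CD3-CD28 against Control, at 88.2% against 8.08% in Treg cells, and near them for OX40L-JAG1 Teff cells, at 20.6% against 20.0%.

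The expansion methods were also set side by side within cultured cells. In Treg cells 25 of the 34 genes were higher with anti-CD3-CD28 than with OX40L-JAG1 and none lower, where 4.73% of all genes were higher and 1.18% lower. Egln3 led, with 9.92 and 9.97 in anti-CD3-CD28 Treg cells, against 6.12 and 6.27 in OX40L-JAG1 Treg cells (3.76 ± 0.29, or 13.5-fold, adjusted p = 3.35e-05). Bnip3 was 7.91-fold, Epas1 5.49-fold, Slc16a3 4.83-fold, Ero1a 4.81-fold and Pfkp 4.60-fold higher. Slc16a1 was higher too, by 1.40 ± 0.21 (adjusted p = 0.00181). Neutrophil and myeloid markers summed to 321 to 341 in anti-CD3-CD28 Treg cells, against 2302 to 2702 in OX40L-JAG1 Treg cells. Basophil and mast cell markers summed to 82.2 to 88.2, against 654 to 803, and T cell markers to 11764 to 12151, against 12975 to 13194. Their part in the result was not tested.

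Hif1a was an exception among the leading genes. It had 11.17 and 11.20 in anti-CD3-CD28 Treg cells, against 10.45 and 10.74 in OX40L-JAG1 Treg cells, and did not pass (0.59 ± 0.24, 95% interval 0.07 to 1.11, adjusted p = 0.234). Also not passing were Ldha, Pfkfb3, Vhl, Pdk1, Higd1a, P4ha1, Ddit4 and Kdm3a, with differences of 0.51 to 1.04. For 29 of the 34 genes the arrays fell in the order anti-CD3-CD28, OX40L-JAG1, Control Treg without overlap, an order that 8.42% of all genes had. The exceptions were Slc16a1, Pfkfb3, Pfkfb4, P4ha2 and Ddit4.

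In Teff cells 33 of the 34 genes were higher with anti-CD3-CD28 than with OX40L-JAG1, where 18.9% of all genes and 54.6% of the 5545 brightest were higher and 9.15% of all genes lower. Pfkfb4 was the exception, at -0.07 ± 0.19. The differences were largest for Egln3 (3.23 ± 0.29), Epas1 (3.18 ± 0.23) and Ero1a (3.02 ± 0.29). After quantile normalization 29 were higher, and 14 in a fit to these 4 arrays alone. T cell markers summed to 8330 to 8397 in anti-CD3-CD28 Teff cells, against 3817 to 6451 in OX40L-JAG1 Teff cells. Neutrophil and myeloid markers summed to 345 to 366, against 4855 to 11048. Their part in the result was not tested. The order anti-CD3-CD28, OX40L-JAG1, Control held without overlap for 9 of the 34 genes in Teff cells, and for 1.73% of all genes.

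**Figure D4:**
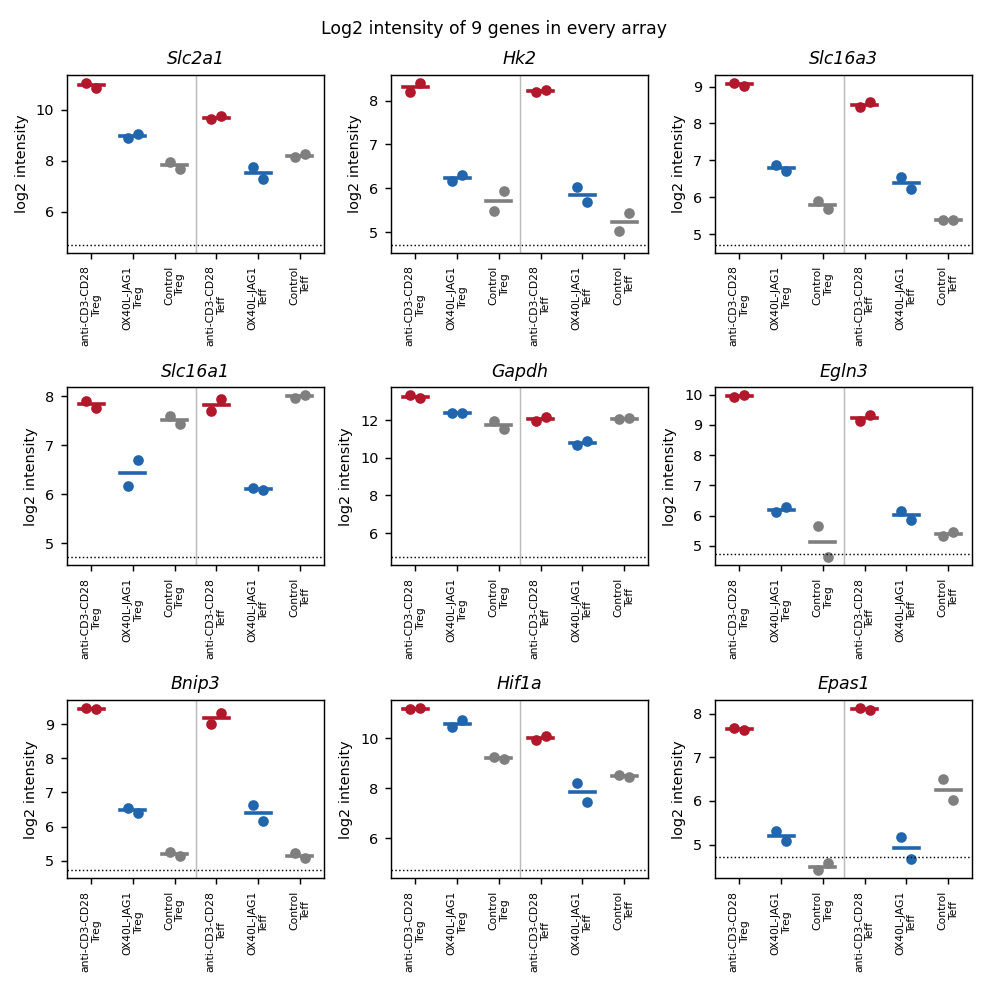
Log2 intensity of 9 genes in every array (points, 2 per group) with the group mean (line), for anti-CD3-CD28 (red), OX40L-JAG1 (blue) and Control (grey) cells; the dotted line is the lowest array median of 4.72. Slc16a1 is lowest in the OX40L-JAG1 groups, and Epas1 lies below the dotted line in both Control Treg arrays but not in Control Teff.

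Fresh Treg and Teff cells differed in few of these genes. Of the 34, none was higher in Control Treg than in Control Teff cells and 2 were lower, where 1.34% of all genes were higher and 2.51% lower (limma). A further 10 of the genes differed at an unadjusted p under 0.05. Epas1 had 4.41 and 4.57 in Control Treg cells, against 6.51 and 6.02 in Control Teff cells, and was at least 2.92-fold lower (adjusted p = 0.00122). Pdk1 had 7.77 and 7.79, against 8.86 in both Control Teff arrays (-1.08 ± 0.20, adjusted p = 0.0127). After quantile normalization Hif1a and P4ha1 were higher as well, and without the OX40L-JAG1 Teff arrays 3 were higher and 4 lower (5.59% and 8.93% of all genes). Erythroid and platelet markers summed to 210 and 217 in Control Treg cells, against 1520 and 1615 in Control Teff cells, and B cell markers to 233 and 295, against 428 and 430. Their part in the result was not tested.

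After anti-CD3-CD28 culture, 8 of the 34 genes were higher in Treg than in Teff cells and none lower, where 9.03% of all genes, and 22.7% of the 5545 brightest, were higher and 2.89% of all genes lower. The share of the 34 genes was 23.5%, near that of bright genes. Ndrg1 had 10.33 and 10.32 in anti-CD3-CD28 Treg cells, against 8.52 and 8.63 in anti-CD3-CD28 Teff cells (1.75 ± 0.18, adjusted p = 0.000192). Slc2a1 was higher by 1.26 ± 0.21, Gapdh by 1.20 ± 0.20 and Hif1a by 1.17 ± 0.24. Pfkp, Pkm, Mxi1 and Pgk1 were higher by 0.63 to 0.84. After quantile normalization 7 were higher and Pdk1 was lower; leaving out 1 array gave 1 call without anti-CD3-CD28 Treg replicate 1, 3 or 4 without any other array compared or a Control Teff array, and 13 without an OX40L-JAG1 Teff array. T cell markers summed to 11764 and 12151 in anti-CD3-CD28 Treg cells, against 8330 and 8397 in anti-CD3-CD28 Teff cells, with 3 of 6 called higher. Erythroid and platelet markers summed to 285 and 304, against 677 and 692, and basophil and mast cell markers to 82.2 and 88.2, against 141 and 157. Their part in the result was not tested.

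After OX40L-JAG1 culture, 18 genes were higher in Treg than in Teff cells and 1, Pfkfb4, was lower, where 24.6% of all genes were higher and 16.5% lower. Of the 5545 brightest genes 71.7% were higher, a larger share than the 52.9% of the 34 genes. Hif1a differed most, with 10.45 and 10.74 in OX40L-JAG1 Treg cells, against 8.21 and 7.46 in OX40L-JAG1 Teff cells (2.76 ± 0.24, adjusted p = 5.09e-05). Ndrg1 differed by 1.79 ± 0.18 and P4ha1 by 1.61 ± 0.22. After quantile normalization 7 were higher (Hif1a, Ndrg1, P4ha1, Gapdh, Ldha, Pfkm and Kdm3a) and 3 lower (Pfkfb4, Pdk1 and Bnip3). T cell markers summed to 12975 to 13194 in OX40L-JAG1 Treg cells, against 3817 to 6451 in OX40L-JAG1 Teff cells. Neutrophil and myeloid markers summed to 2302 to 2702, against 4855 to 11048, and basophil and mast cell markers to 654 to 803, against 1351 to 2986. The part of these markers in the result was not tested.

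Whether the response to anti-CD3-CD28 differed between the cell types was tested as an interaction, the change in Treg cells minus that in Teff cells. It was higher in 7 of the 34 genes and lower in none, where 10.1% of all genes, and 26.5% of the 5545 brightest, were called higher and 2.94% of all genes lower. The median interaction was 0.51 over the 34 genes and 0.66 over the brightest genes, so the group as a whole did not exceed bright genes. Ndrg1 (1.82 ± 0.25, adjusted p = 0.0017), Slc2a1 (1.64 ± 0.30, adjusted p = 0.00595), Gapdh (1.53 ± 0.28) and Pkm (1.05 ± 0.27) were called also after quantile normalization. The dimmer second row of Slc2a1 changed by 0.16 in Treg and 0.53 in Teff cells, the opposite order, and that of Ndrg1 by 2.36 and 1.82. Egln1 (1.43 ± 0.32), Epas1 (1.33 ± 0.32) and Pfkp (1.08 ± 0.31) were not called after quantile normalization. Epas1 averaged 4.49 in Control Treg cells, below the lowest array median, and its interaction was not bounded. For Bnip3 the interaction was 0.25 ± 0.29 (95% interval -0.40 to 0.90) and for Slc16a3 0.13 ± 0.27 (interval -0.45 to 0.72).

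**Figure D5:**
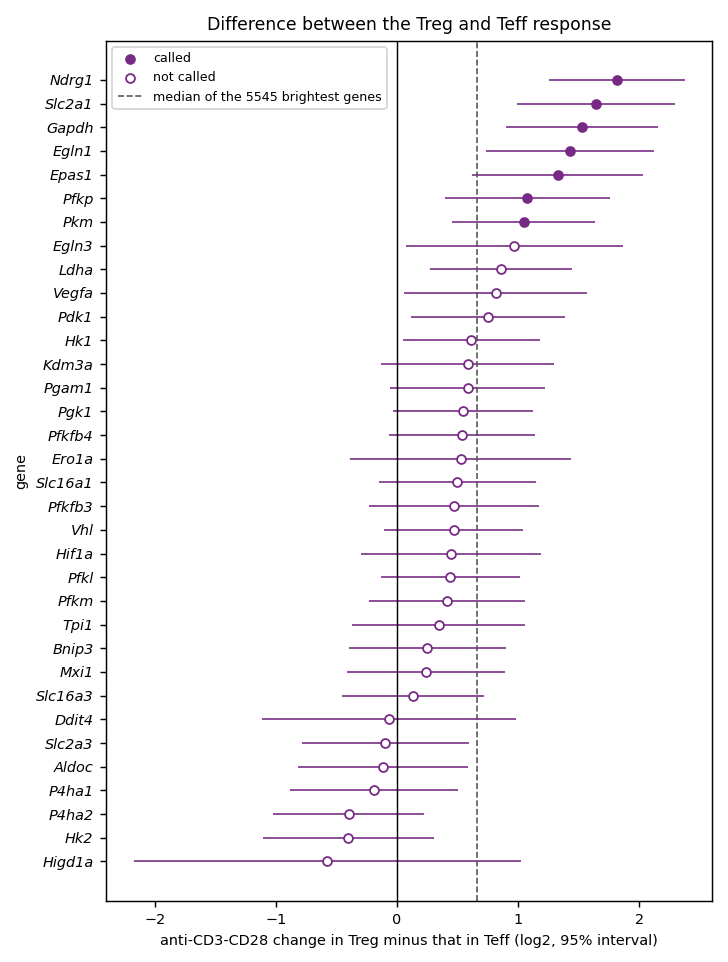
Difference of the anti-CD3-CD28 change between Treg and Teff cells for each gene (log2, with 95% interval), with filled points for adjusted p under 0.05. The dashed line at 0.66 is the median of the 5545 brightest genes; Ndrg1, Slc2a1, Gapdh and Egln1 have intervals wholly above it.

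The OX40L-JAG1 response was higher in Treg than in Teff cells in 16 of the 34 genes and lower in none, where 21.3% of all genes, and 60.9% of the 5545 brightest, were called higher and 10.2% of all genes lower. Epas1 (2.05 ± 0.32), Hif1a (2.03 ± 0.34), Gapdh (1.91 ± 0.28) and Ndrg1 (1.86 ± 0.25) had the largest differences. The dimmer second rows of Hif1a and Ndrg1 did not show a larger change in Treg cells: Hif1a changed there by 1.30 in Treg and 1.34 in Teff cells, and Ndrg1 by 0.81 and 1.53. Nor did those of Slc2a1 (0.03 and 0.20), Ero1a (0.61 and 1.01) and Pdk1 (0.58 and 1.38, in a row below the array medians). The further rows of Gapdh kept the order (0.56 and -1.17, and 0.33 and -0.61). After quantile normalization 6 were called: Epas1, Hif1a, Gapdh, Ndrg1, Pfkm and Ldha. This contrast rests on the OX40L-JAG1 Teff arrays, whose narrow range and myeloid markers are given above.

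Other genes of the same pathways were read outside the 34, against the shares of all genes given above (8.08% rose and 1.97% fell with anti-CD3-CD28 in Treg cells, 5.44% and 9.75% in Teff cells, and 0.996% and 0.559% with OX40L-JAG1 in Treg cells). Of 24 measured further glycolytic isoforms and carriers, 1 rose with anti-CD3-CD28 in Treg cells, the glucose transporter Slc2a6 (7.19 against 4.58 in Control Treg cells, at least 5.55-fold, adjusted p = 2.09e-05). It rose in OX40L-JAG1 Treg cells too (6.62, at least 3.75-fold). In anti-CD3-CD28 Teff cells Slc2a6 rose by 1.43 ± 0.22 and 4 of the 24 fell, namely Pklr, the liver and red cell pyruvate kinase (-1.77 ± 0.27; erythroid markers are given above), Gpd2 (-0.95), Adpgk (-0.84) and Pgm2 (-0.75).

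Of 28 further HIF system genes and targets, 13 rose and 1 fell in anti-CD3-CD28 Treg cells. Gys1, glycogen synthase, rose by 2.64 ± 0.22 (adjusted p = 1.92e-05). Ppp1r3b, a glycogen-targeting phosphatase subunit, rose by 2.27 ± 0.18, the mitochondrial adenylate kinase Ak4 at least 5.21-fold and the secreted hormone Stc1 at least 3.19-fold. In anti-CD3-CD28 Teff cells 11 rose and 2 fell, led by Fam162a (2.92 ± 0.55), Bhlhe40 (2.85 ± 0.22), Ak4 (2.34 ± 0.34) and Hmox1, heme oxygenase (2.02 ± 0.20). In OX40L-JAG1 Treg cells 2 rose, Bhlhe40 (1.96 ± 0.22) and Adm (at least 1.38-fold), and the carbonic anhydrase Car12 fell (-1.10 ± 0.23).

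Of 11 genes for pyruvate entry to mitochondria, 2 rose with anti-CD3-CD28 in Treg cells, the kinase Pdk3 (1.04 ± 0.24) and the opposing phosphatase Pdp2 (0.83 ± 0.22). In Teff cells Pdk3 rose (0.88 ± 0.24) and Pdha1, a subunit of pyruvate dehydrogenase, fell (-0.78 ± 0.24). Of 5 pentose phosphate genes Pgd (1.70 ± 0.22) and Rpia (0.88 ± 0.17) rose in anti-CD3-CD28 Treg cells, and both rose in Teff cells (0.72 and 0.78). In OX40L-JAG1 Treg cells none of these 16 genes passed the test in limma, and Pgd (0.90 ± 0.22) was the 1 with an unadjusted p under 0.05.

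Among 25 upstream regulators, 5 rose in anti-CD3-CD28 Treg cells, among them the MAX partner Mxd1 (1.45 ± 0.24), the mTOR regulator Sesn2 (1.36 ± 0.25) and the transcription factor Irf4 (0.99 ± 0.18). In anti-CD3-CD28 Teff cells 3 rose and 7 fell, with Sesn3 (-1.25 ± 0.23), Txnip, a brake on glucose uptake (-1.16 ± 0.20), and the mTOR partner Rptor (-1.15 ± 0.19) falling most. In Treg cells Txnip had 0.19 ± 0.20 and Rptor 0.43 ± 0.19, and neither passed.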

How the data were processed

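RNA of 12 samples (6 groups of 2) was hybridised to Affymetrix Mouse Gene 2.0 ST arrays. The deposited values are the authors' log2 intensities, made by RMA (background correction, normalization and probe summary across arrays), per the submitters' processing notes (version: not given in the sources used here). Of 41345 rows, 23521 named 1 gene, 1814 several and 16010 none in the platform annotation, and 23328 rows were matched by Entrez ID to RefSeq genes (GRCm38.p6). The brightest row stood for a gene, which left 22180 genes.

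These log2 values were fitted with limma 3.58.1 (R 4.3.3), with a mean for each group in 1 model of the 12 arrays (6 residual degrees of freedom), moderated by empirical Bayes. The 9 comparisons of groups and 2 interactions were tested two-sided, with p-values adjusted by Benjamini-Hochberg over all genes and called below 0.05. The fit was tested on simulated data. Levels below the lowest array median (4.72) were taken as bounds, so folds from them are written "at least". Interactions were not bounded in this way, which limits those of Epas1, P4ha2 and Pfkm. No probe's level was set against another's, and precision is limited by how few arrays there are.

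The genes and lists were chosen with earlier results of these data known. Every one of the 34 genes could be named, and of other lists at most 4 called genes per comparison, those with the largest changes; of marker lists only Foxp3, Cd4 and Cd3e. The values of Txnip and Rptor in Treg cells were added after their values were seen, and so were that of Pgd with OX40L-JAG1 and those of Ppbp. Those of Cd5, Cd2, Cd3g and Cd3d in Teff cells were added in the same way. The shared replicate labels were not used to pair the samples in the main fit. Over all genes, 15 correlations between groups of the difference between replicates lay between -0.07 and 0.18. They cannot tell whether samples with the same label share a mouse or culture. Alternatives were quantile normalization, a common median, array weights, the OX40L-JAG1 Teff arrays left out, only the groups compared, a filter on dim genes, averaging a gene's rows, a log2 change of at least 1, the replicate block, and each array left out.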

Additional observations from a re-analysis of the deposited data

Results flagged for a closer look

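The responses of Treg and Teff cells to the same treatment differed by an interaction test in the genes below, each value being the log2 change against Control in Treg cells minus that in Teff cells. For anti-CD3-CD28 the differences were 1.82 in Ndrg1, 1.64 in Slc2a1, 1.53 in Gapdh, 1.43 in Egln1, 1.33 in Epas1, 1.08 in Pfkp and 1.05 in Pkm. All were positive, as the median of the 5545 brightest genes was (0.66). For OX40L-JAG1 they were 2.05 in Epas1, 2.03 in Hif1a, 1.91 in Gapdh, 1.86 in Ndrg1, 1.83 in Slc2a1, 1.82 in Egln1, 1.71 in Kdm3a and 1.48 in Ldha. They were 1.43 in Pfkm, 1.27 in Ero1a, 1.24 in Pkm, 1.06 in Pfkfb3, 1.03 in Hk1, 0.98 in Pdk1, 0.93 in P4ha1 and 0.87 in Pfkl. The median of the 5545 brightest genes was 1.26 for that treatment. In dimmer second rows, Slc2a1, Hif1a, Ndrg1, Ero1a and Pdk1 changed less in Treg than in Teff cells with OX40L-JAG1. Slc2a1 did so with anti-CD3-CD28 too, while the further rows of Gapdh kept the order with each treatment.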

How the results depend on the processing

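Counts are of the 34 genes called. Of 7718 values of single genes under the alternatives, 6842 kept direction and side of the threshold, 470 lost the call, 259 gained one and 22 called values changed sign, all 22 in comparisons that use the OX40L-JAG1 Teff arrays; the cause was not tested. With anti-CD3-CD28 against Control, leaving out each array gave 27 to 32 calls in Treg and 22 to 27 in Teff cells. With OX40L-JAG1 against Control it gave 2 to 21 in Treg and 12 to 21 in Teff cells. For anti-CD3-CD28 against OX40L-JAG1 it gave 18 to 33 and 31 to 33. For Treg against Teff it gave 1 to 7 in Control, 12 to 25 with OX40L-JAG1 and 1 to 13 with anti-CD3-CD28, and for the interactions 3 to 10 (anti-CD3-CD28) and 10 to 27 (OX40L-JAG1). Without both OX40L-JAG1 Teff arrays there were 21 calls for OX40L-JAG1 Treg against Control, 7 for Control Treg against Teff and 13 for anti-CD3-CD28 Treg against Teff. Array weights gave 8 for OX40L-JAG1 Teff against Control, 12, 10 and 14 for Treg against Teff in fresh cells and with OX40L-JAG1 and anti-CD3-CD28, and 12 for the anti-CD3-CD28 interaction. Fits to only the groups compared gave 4 for OX40L-JAG1 Teff against Control, 14 for anti-CD3-CD28 against OX40L-JAG1 in Teff cells, 6, 3 and 13 for Treg against Teff in the same order, and 11 for the anti-CD3-CD28 interaction. A log2 change of at least 1 left 9, 11 and 4 for OX40L-JAG1 Teff against Control and for Treg against Teff with OX40L-JAG1 and anti-CD3-CD28. Quantile normalization gave 4 and 10 for Treg against Teff in Control and OX40L-JAG1 cells, and 4 and 6 for the interactions (anti-CD3-CD28, OX40L-JAG1). It turned OX40L-JAG1 Teff against Control to 0.40 for Slc2a1, 0.24 for Hk1, 0.65 for Pfkp, 0.44 for Hif1a, 0.14 for Egln1, 0.67 for Pdk1, 1.05 for P4ha1, 0.67 for Ero1a and 0.88 for Mxi1. It also turned Pdk1 to -0.13 for anti-CD3-CD28 against OX40L-JAG1 Teff, and OX40L-JAG1 Treg against Teff to -0.37 for Hk1, -0.23 for Aldoc, -0.012 for Pgk1 and -0.59 for Bnip3. The OX40L-JAG1 interaction became -0.020 for Hk1, -0.28 for Pfkl, -0.24 for Pdk1 and -0.29 for P4ha1. The mean of all rows turned OX40L-JAG1 Teff against Control to 0.35 for Hif1a, 1.18 for Mxi1 and 0.60 for Ndrg1, and Higd1a was -0.91 without OX40L-JAG1 Teff replicate 1 and 1.19 without replicate B. A replicate block gave 30 calls with anti-CD3-CD28 against Control in Treg cells, 25 in Teff cells, 11 with OX40L-JAG1 in Treg and 18 in Teff cells, and 24, 33, 2, 18, 6, 6 and 15 in the other comparisons. Under the block the calls of Pkm, Hif1a, Pfkfb4, Vhl, Pgk1, Mxi1, Pfkp and P4ha1 were each lost in 1 comparison. Scaling moved the median of all genes by up to 0.25 (common median, OX40L-JAG1 interaction), and signal near the array medians limits Epas1, P4ha2 and Pfkm.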
